A study of Mus musculus with 11 samples.

Results

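Basement membrane genes were followed through the mesenchymal cells of the mouse liver, as 10 genes taken by symbol from the 27998 genes of the droplet libraries. They were the type IV collagen chains Col4a1 and Col4a2, the laminin chains Lama1, Lama4, Lamb1 and Lamc1, the linker protein nidogen 1 (Nid1), the heparan sulphate proteoglycan perlecan (Hspg2), and the basement membrane zone collagens Col15a1 and Col18a1. The list was set by what the genes encode, though with earlier results of these data known, and each of the 10 was in the deposited tables. The study sorted GFP+ cells from adult male Pdgfrb-BAC-eGFP mice, bred on C57BL/6, after removing CD45+ leucocytes and CD102+ endothelial cells. The reporter therefore marks cells in which the Pdgfrb promoter is active, in uninjured and injured livers alike. Carbon tetrachloride (CCl4), a hepatocyte toxin, was injected in olive oil, and cells were taken either 72 h after 1 dose (acute injury) or after 6 weeks of repeated doses (chronic injury).

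5 libraries were made with 10X Genomics 3′ chemistry, each from 3 mice. Digestion protocol 1, in which minced liver was digested after a saline flush, gave an uninjured and a 6 week CCl4 library. Digestion protocol 2, a retrograde enzyme perfusion followed by a density gradient, gave an uninjured, a 6 week and a 72 h library. In addition, 6 plates of single wells were processed with Smart-seq2, a full-length method, from uninjured mice, mice given CCl4 for 6 weeks and mice 14 days after bile duct ligation (BDL), an obstruction that injures the portal area. Protocol 1 libraries were split by marker genes into fibroblast-like (FB-like) and vascular smooth muscle-like (VSMC-like) cells. Protocol 2 libraries held mainly hepatic stellate cells (HSC), the vitamin A-storing pericytes of the sinusoid.

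A basement membrane is a thin sheet of matrix that lies against epithelium, endothelium, muscle and fat. A laminin trimer of 1 alpha, 1 beta and 1 gamma chain polymerises on the cell surface, a type IV collagen network forms over it, and nidogen and perlecan link the 2 layers. Col15a1 and Col18a1 encode the multiplexins, collagens with interrupted triple helices and heparan or chondroitin sulphate chains that sit where the basement membrane meets the interstitial matrix, and the C-terminal fragment of the Col18a1 product is endostatin. In the healthy liver the sinusoid lacks a continuous basement membrane, while bile ducts, portal vessels and central veins have one.

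Col4a1 (GRCm38, chr8:11198423-11312826, minus strand) and Col4a2 (chr8:11312805-11449287, plus strand) lie head to head, and their annotated gene bodies overlap by 22 bases. The other members are scattered over the genome: Lama1 at chr17:67697259-67822647, Lama4 at chr10:38965515-39110188, Lamb1 at chr12:31265234-31329644, Lamc1 at chr1:153218922-153332786, Nid1 at chr13:13437551-13512269, Hspg2 at chr4:137468769-137570630, Col15a1 at chr4:47208161-47313167 and Col18a1 at chr10:77052178-77166548.

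The bases just before the annotated starts of Col15a1 and Lamb1 are shown because the 2 genes had the largest FB-like to VSMC-like ratios among the members and yet opposite levels in protocol 2 cells. Both are from RefSeq (GRCm38.p6), read 5′ to 3′ on the gene's strand, with CCAAT and GGGCGG boxes in capitals, a GGGCGG box on the other strand reading CCGCCC. The window was chr4:47207762-47208011 for Col15a1, plus strand, and chr12:31265043-31265233 for Lamb1, plus strand.
Col15a1: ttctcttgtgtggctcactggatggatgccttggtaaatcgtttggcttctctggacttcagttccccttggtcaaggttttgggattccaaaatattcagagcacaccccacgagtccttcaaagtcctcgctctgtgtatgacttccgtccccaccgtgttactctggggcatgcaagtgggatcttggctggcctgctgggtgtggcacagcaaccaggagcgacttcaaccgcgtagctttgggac
Lamb1: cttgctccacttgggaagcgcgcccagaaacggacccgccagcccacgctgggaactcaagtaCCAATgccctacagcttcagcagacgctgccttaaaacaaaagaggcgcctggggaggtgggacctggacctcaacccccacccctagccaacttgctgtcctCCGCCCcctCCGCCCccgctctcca
The Lamb1 window held 1 CCAAT match and 2 GGGCGG matches, and the Col15a1 window held neither. Over 250 bases before the start, on either strand, CCAAT occurred in 33.8% and GGGCGG in 33.0% of 32544 mouse promoters. CAGCTG (13.1% of promoters) and TATAAA (12.3%) occurred in neither window. The table used held promoters of 7 of the 10 members, without Lama1, Lama4 and Lamc1.

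The 10X libraries held 5454 to 7310 cells after filtering and 25962966 to 86661233 unique molecular identifiers (UMIs), with median UMIs per cell rising from 4299 in uninjured protocol 1 to 11343.5 at 72 h in protocol 2. There were 4066 FB-like and 1513 VSMC-like cells in the uninjured protocol 1 library and 2639 and 2787 in the 6 week library. Clec3b, a fibroblast marker, was at 3001 CPM (UMI counts scaled to a total of 1000000) in uninjured FB-like cells, against 75.6 CPM for VSMC-like ones, while Myh11, the smooth muscle myosin, was at 28.9 against 1993 CPM. Reln, an HSC marker, was at 1279 to 1405 CPM in uninjured and 6 week protocol 2 cells and at most 1.18 CPM in protocol 1 cells. Between libraries, 33 to 74 cell barcodes were shared, 0.605 to 1.31% of the smaller library. Each condition had 1 library per protocol, so 10X differences have no replicate check, and their 95% intervals (exact Poisson for CPM and ratios, exact binomial for shares) cover counting error only. Protocol, cell type and library cannot be told apart between protocol 1 and protocol 2 values.

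The laminin alpha chain genes Lama1 and Lama4 were divided between the 3 cell populations. Lama1, the alpha chain of laminin-111, was at 123 CPM (95% interval 120 to 126) in uninjured protocol 2 cells. In protocol 1, 1 Lama1 UMI was found in 4066 uninjured FB-like cells, 0 in 1513 VSMC-like cells, 2 in 2639 FB-like cells at 6 weeks and 0 in 2787 VSMC-like cells. Together these 3 UMIs in 11005 cells come to 0.0553 CPM, and no group held enough of them for a fold. Lama4, the alpha chain of the laminins of vessel and mesenchymal basement membranes, had the opposite distribution, with 55.3 CPM (52.1 to 58.6) in uninjured FB-like cells. VSMC-like cells had 7.80 CPM (5.49 to 10.7) and uninjured protocol 2 cells 1.03 CPM (0.763 to 1.37). Lama1 UMIs were seen in 51.7% of uninjured protocol 2 cells, or 21.4% once cells were thinned to 2000 UMIs. For FB-like cells the shares were 0.0246% and 0.0258%. Thinning left out cells under 2000 UMIs. Among uninjured cells these were 115 of protocol 2, 189 FB-like and 145 VSMC-like.

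Lamb1 and Lamc1 encode the beta and gamma chains shared by most laminin trimers. Lamb1 was at 262 CPM in uninjured protocol 2 cells. FB-like cells had 66.9 CPM and VSMC-like cells had 4.0 CPM, from 19 UMIs. Lamc1 varied far less, at 226, 182 and 70.0 CPM. There were therefore 1.16 UMIs of Lamb1 per UMI of Lamc1 in protocol 2 cells. The ratio was 0.367 for FB-like cells but 0.0572 (0.0340 to 0.0908) for VSMC-like cells, which held Lamc1 with hardly any Lamb1. In the 6 week library the VSMC-like ratio was 0.0791 (0.0616 to 0.100). A 3′ UMI counts 1 transcript end whatever the transcript's length, so these ratios need no correction for length. Differences between the genes in 3′ capture were not tested. On the Smart-seq2 plates, in reads not corrected for length, uninjured HSC-like wells had mean levels of 950 CPM for Lamb1 and 379 CPM for Lamc1. Uninjured FB-like wells there had 243 and 299 CPM. The ratio of the 2 genes therefore differed between plate reads and UMIs. Platform, library and transcript length cannot be told apart in this difference, and its cause was not tested.

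The type IV collagen chains were present in every population. In uninjured cells of protocol 2 Col4a1 was at 443 CPM and Col4a2 at 281 CPM. FB-like cells had 167 CPM of Col4a1 and 100.05 CPM of Col4a2, and for VSMC-like cells the values were 111 and 80.7 CPM. At equal depth (2000 UMIs per cell) a Col4a1 UMI was found in 56.3% of protocol 2 cells, 26.1% of FB-like cells and 19.1% of those of VSMC type. Col4a1 UMIs outnumbered those of Col4a2 in uninjured cells of each population, with a ratio of 1.58 (1.54 to 1.61) for protocol 2, 1.67 (1.58 to 1.77) for FB-like and 1.38 (1.21 to 1.58) for VSMC-like cells.

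The 2 multiplexins were divided between the 2 protocol 1 populations. For Col15a1 uninjured FB-like cells had 288 CPM (281 to 296) against 14.96 CPM (11.7 to 18.9) for VSMC-like cells, and all 6850 uninjured protocol 2 cells together had 4 UMIs, or 0.0862 CPM. Col18a1 was highest in VSMC-like cells, at 161 CPM (150 to 173), against 22.6 CPM (20.6 to 24.8) for FB-like and 2.46 CPM for protocol 2 cells. FB-like cells held 12.8 UMIs of Col15a1 per UMI of Col18a1, and VSMC-like cells 0.0931. At equal depth 39.0% of FB-like cells had a Col15a1 UMI, against 2.34% of VSMC-like cells and 0 of 6735 protocol 2 cells (upper limit 0.0445%).

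Of the 2 linkers, Nid1 followed the FB-like and protocol 2 cells and Hspg2 was spread most evenly of all members. Uninjured FB-like cells had Nid1 at 337 CPM, protocol 2 cells at 277 CPM and VSMC-like cells at 21.7 CPM. Hspg2 was at 148, 78.96 and 105 CPM in the same order. Over the 7 groups of cells (FB-like and VSMC-like, each uninjured and at 6 weeks, and the 3 protocol 2 libraries) the highest Hspg2 level was 1.87 times the lowest, against 3.23 for Lamc1, 4.84 for Col4a1, 5.78 for Col4a2, 15.5 for Nid1, 53.4 for Lama4, 65.4 for Lamb1 and 90.6 for Col18a1. The range of Col15a1 was widest, although its lowest level rests on the 4 UMIs of uninjured protocol 2, and Lama1 had no fold because its lowest groups were at 0.

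**Figure D1:**
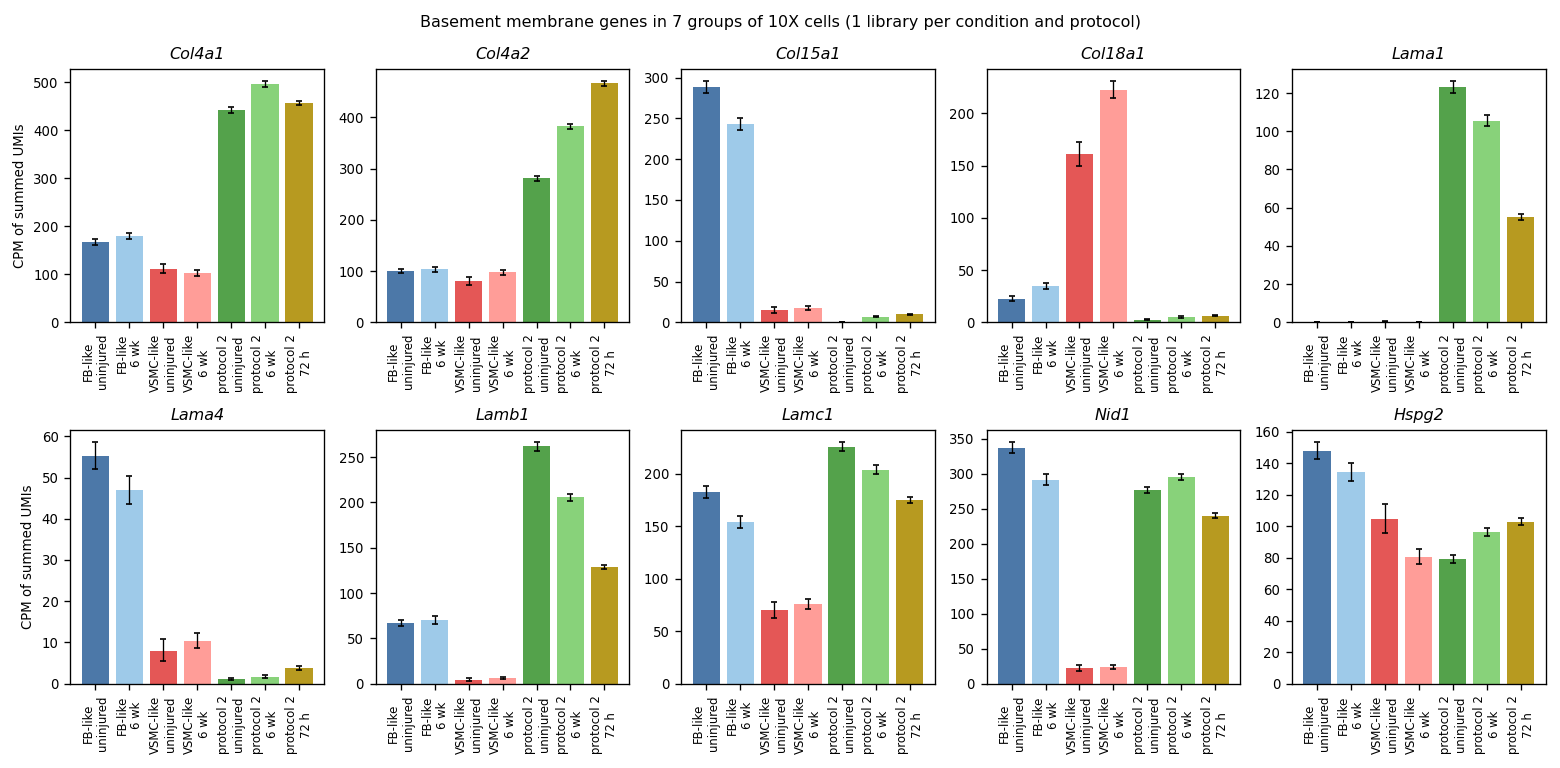
Levels of the 10 genes in the 7 groups of 10X cells, in CPM, with 95% counting intervals and 1 library per group. Lama1 is at 0 or near it in the 4 protocol 1 groups and between 55.4 and 123 CPM in protocol 2, whereas Hspg2 lies between 78.96 and 148 CPM throughout.

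Between FB-like and VSMC-like cells of the uninjured library, 9 members reached 10 CPM in the higher group. Of these, 5 were at least 2-fold higher in FB-like cells, where 19.7% of all 8770 genes were, and 1 was at least 2-fold lower, where 11.9% were. The FB-like to VSMC-like ratios were 19.3 for Col15a1 (15.3 to 24.7), 16.7 for Lamb1 (10.7 to 27.8), 15.5 for Nid1 (12.8 to 19.0), 7.09 for Lama4 (5.11 to 10.1) and 2.61 for Lamc1 (2.33 to 2.93). Col18a1 was 7.11 times higher in VSMC-like cells (6.32 to 8.0). Col4a1, Col4a2 and Hspg2 differed by less than 2-fold, at 1.503, 1.24 and 1.41. In the 6 week library the counts were 5 of 9 and 1 of 9 against 16.6% and 12.3% of genes, with ratios of 14.1 for Col15a1, 12.6 for Nid1, 11.7 for Lamb1, 4.57 for Lama4 and 2.04 for Lamc1, and Col18a1 6.46 times higher in VSMC-like cells. When each cell was instead classed by its own marker score, the FB-like minus VSMC-like log2 differences were smaller: in uninjured cells 3.11 for Col15a1, 2.73 for Lamb1, 2.71 for Nid1 and 2.14 for Lama4, and at 6 weeks 3.07, 2.75, 2.93 and 1.86. Lamc1 at 6 weeks was then at 0.91, below 2-fold, so that 4 members passed. The fibroblast markers Clec3b and Dpt, which mature smooth muscle lacks, were at 75.6 and 85.6 CPM in uninjured VSMC-like cells, against 3001 and 2049 CPM in FB-like cells. The part of such fibroblast RNA in the low VSMC-like levels of Col15a1, Lamb1 and Nid1 was not tested.

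Members also varied inside the 2 protocol 1 populations. Among uninjured FB-like clusters, the one led by Ly6c1 and Pi16 had Nid1 at 513 CPM, Lamc1 at 304 CPM, Lamb1 at 98.6 CPM and Lama4 at 92.7 CPM. The cluster led by Ptn, Sfrp1 and C7 had Nid1 at 221 CPM, Lamc1 at 93.6 CPM and Lama4 at 36.7 CPM. Col15a1 was highest, at 442 CPM, in the cluster led by Thbs4 and Tnmd, tendon-associated genes, and was at 448 CPM there at 6 weeks. Among VSMC-like cells, the cluster led by the muscle genes Tcap and Pln had Col18a1 at 206 CPM, Col4a1 at 137 CPM and Hspg2 at 130 CPM. The cluster led by Cd24a and Higd1b had them at 95.2, 74.1 and 69.0 CPM. At 6 weeks Col18a1 was at 288 and 186 CPM in these clusters, the same order. The members were left out of the genes used for clustering.

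In protocol 2 cells, the summed level of the 10 genes differed little between the libraries while their mix differed. The sum was 1694 CPM in uninjured cells, 1800 CPM at 6 weeks and 1646 CPM at 72 h. Over the same libraries Col1a1, Col1a2 and Col3a1, the fibrillar collagens of scar, summed to 2035, 3676 and 8930 CPM. Col4a2 made up 16.6% of member UMIs in uninjured cells, 21.2% at 6 weeks and 28.3% at 72 h, Lamb1 made up 15.5%, 11.4% and 7.84%, and Lama1 made up 7.27%, 5.86% and 3.36%.

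At 72 h after 1 dose of CCl4, Lama1 was at 55.4 CPM against 123 CPM in uninjured cells, a ratio of 0.450 (0.433 to 0.467). Lamb1 was at 129 against 262 CPM, a ratio of 0.4926 (0.480 to 0.505). Lamc1, the gamma chain of the same trimer, was at 175 against 226 CPM, a ratio of 0.776, and Nid1 was at 240 against 277 CPM, a ratio of 0.867. Col4a2 was at 466 against 281 CPM, a ratio of 1.66 (1.63 to 1.69), while Col4a1 was at 457 against 443 CPM, a ratio of 1.03 (1.02 to 1.05). Hspg2 was at 103 against 78.96 CPM, a ratio of 1.30.

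Of 8 members at 10 CPM or more in either library, 1 (Col15a1) was at least 2-fold higher at 72 h, where 7.07% of 8387 genes were, and 2 (Lama1 and Lamb1) were at least 2-fold lower, where 9.54% were. The median log2 ratio was -0.08 for the members and -0.22 for all genes. Scaling by the median ratio of genes shifts every log2 ratio at 72 h up by 0.16, and no member was then 2-fold lower. Col15a1 did not reach 10 CPM in either library, and so was not counted, with the mean over cells, after thinning to 2000 UMIs or without cells of 3 or more fibroblast markers, although its log2 ratio after thinning was still 5.30. The fold sizes of Lama1 and Lamb1 were therefore close to the limit, at 2.22-fold and 2.03-fold lower by CPM.

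After 6 weeks of CCl4, Col4a2, Hspg2, Lamb1, Lama1 and Lamc1 lay between the uninjured and 72 h values. Col4a1 and Nid1, the latter at 295 CPM, lay above both. Col4a2 was at 382 CPM, 1.36 times the uninjured level (1.33 to 1.39), Col4a1 at 497 CPM, 1.12 times, and Hspg2 at 96.3 CPM, 1.22 times. Lamb1 was at 206 CPM, 0.785 times (0.765 to 0.806), Lama1 at 106 CPM, 0.857 times, and Lamc1 at 204 CPM, 0.903 times. Under median-ratio scaling, which shifts the 6 week log2 ratios up by 0.20, Lamc1 lay above its uninjured level, at a log2 ratio of 0.06. None of the 7 members at 10 CPM or more passed 2-fold, where 2.96% of 8139 genes were higher and 1.61% lower. Between 72 h and 6 weeks none of 8 passed it, where 4.38% of genes were higher and 4.43% lower. Lama1 came closest, at 0.525 times its 6 week level. The 2 injured libraries were set against the same uninjured library.

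Col15a1 went from 0.0862 CPM (4 UMIs) in uninjured protocol 2 cells to 7.06 CPM (369 UMIs) at 6 weeks and 10.1 CPM (876 UMIs) at 72 h. The counting interval for the 72 h ratio was 45.6 to 431, wide because of the 4 UMIs. FB-like cells were at 243 to 288 CPM, and 1.57% of 72 h cells thinned to 2000 UMIs had a Col15a1 UMI. Cells with at least 3 of the 5 fibroblast markers numbered 2, 214 and 536 in the uninjured, 6 week and 72 h libraries, and they held 34.7% of the Col15a1 UMIs at 6 weeks and 40.3% at 72 h. Clusters named FB-like held only 0, 6 and 16 cells of these libraries. At 72 h the cells with these markers had Lama1 at 32.7 and Col4a1 at 493 CPM. Uninjured FB-like cells of protocol 1 had 0.0495 and 167 CPM. Whether the cells with these markers were fibroblasts was not tested. In the remaining cells Col15a1 was at 0.0863, 4.86 and 6.74 CPM. Lama4 was at 1.03, 1.59 and 3.74 CPM over all protocol 2 cells and at 1.04, 1.07 and 3.31 CPM without the cells with fibroblast markers. Col18a1 was at 2.46, 5.13 and 6.21 CPM. Dpt, in the same libraries, was at 6.70, 165 and 78.5 CPM. Of the mesothelial markers, Wt1 was at 1.10, 39.1 and 34.2 CPM while Upk3b, Muc16 and Lrrn4 were at 0 and Msln at no more than 0.0191 CPM.

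**Figure D2:**
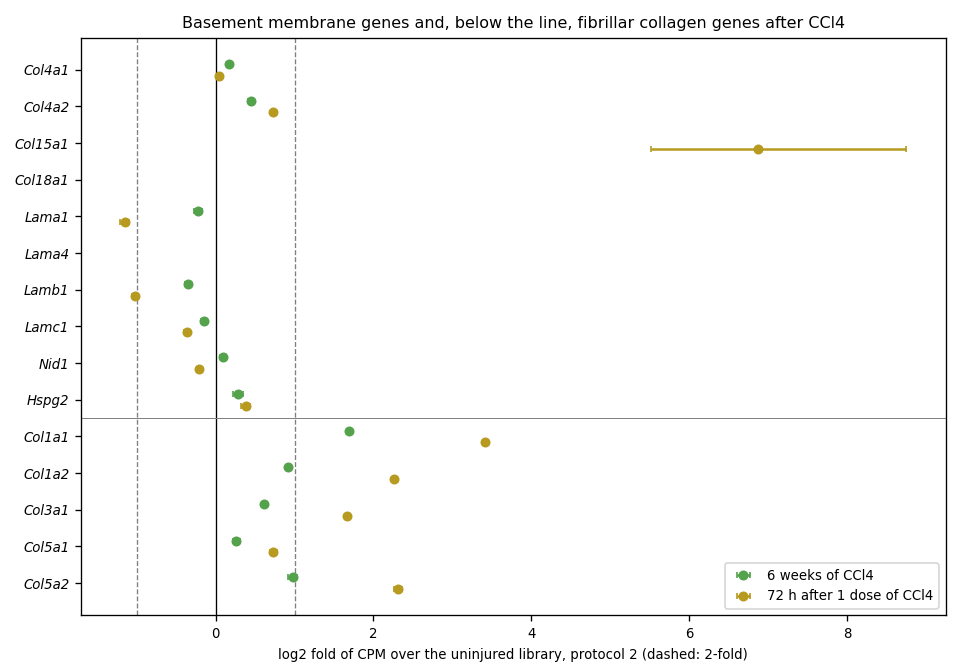
Ratios of member levels in injured against uninjured protocol 2 cells on a log2 axis, for genes at 10 CPM or more in the higher library, with 95% counting intervals and 1 library per condition. Lama1 and Lamb1 lie lowest at 72 h, at 0.450 and 0.4926, and Col4a2 lies above Col4a1 at both times.

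The 2 genes of a pair did not keep a fixed ratio. The ratio of Col4a1 to Col4a2 UMIs was 1.58 in uninjured protocol 2 cells, 1.30 (1.28 to 1.33) at 6 weeks and 0.981 (0.967 to 0.995) at 72 h. In FB-like cells it was 1.67 uninjured and 1.73 (1.63 to 1.83) at 6 weeks. In VSMC-like cells it was 1.38 and 1.06 (0.974 to 1.14). Lamb1 to Lamc1 was 1.16 in uninjured protocol 2 cells, 1.01 at 6 weeks and 0.736 (0.718 to 0.755) at 72 h, and in FB-like cells 0.367 and 0.455.

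**Figure D3:**
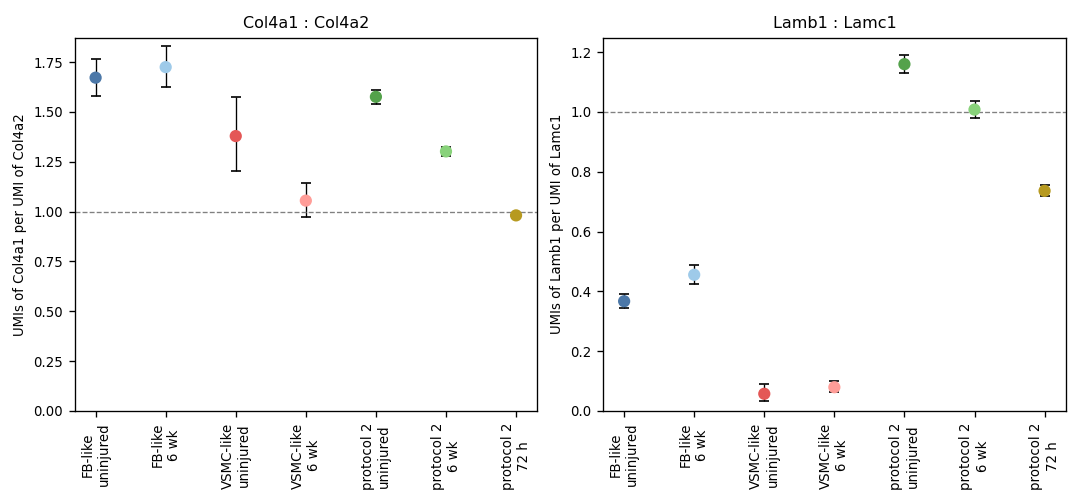
UMIs of Col4a1 per UMI of Col4a2 (left) and of Lamb1 per UMI of Lamc1 (right) in the 7 groups of 10X cells, with 95% counting intervals and a dashed line at 1. In protocol 2 both ratios fall from uninjured through 6 weeks to 72 h, ending at 0.981 and 0.736.

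Libraries of protocol 2 differed in their HSC markers as well. Reln was at 1405, 1279 and 564 CPM in the uninjured, 6 week and 72 h libraries, Ecm1 at 15299, 5260 and 935 CPM, Lrat at 1253, 1521 and 941 CPM, and Acta2, smooth muscle actin, at 26.0, 156 and 872 CPM. Clec4g, an endothelial gene, was at 57.4, 79.1 and 25.7 CPM. The endothelial list of 6 genes summed to 59.4, 80.8 and 27.2 CPM, so that its other 5 genes were near 0. Clec4g was among the leading genes of 2 clusters that kept no cell type name, although HSC markers scored highest in both. At 72 h such a cluster had Lama1 at 122 CPM and Lamb1 at 179 CPM. The 3 HSC-like clusters at 72 h had Lama1 at 43.6 to 48.4 CPM and Lamb1 at 106 to 129 CPM. With HSC-like cells alone, the counts of members past 2-fold were as before, and the 72 h log2 ratios of Lama1 and Lamb1 were -1.43 and -1.11. Unnamed cells, which this left out, made up 14.2% of 72 h cells but 1.45% of uninjured cells. Cells with more Lama1 were thus removed mainly from the 72 h side, so these ratios are not a separate check.

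Zonal position along the sinusoid was followed with a score built from genes that the study assigned to HSC near portal or central veins. That list was chosen on these samples and held Lama1, which was removed from the score, so gradients along it are not independent evidence of a portal position. In the uninjured library Col4a1 was at 595 CPM in the upper tercile of cells by portal score and 301 CPM in the lower tercile, a ratio of 1.98 (1.91 to 2.05). The ratios were 2.14 for Col4a2, 2.13 for Lama1, 1.87 for Lamc1, 1.34 for Nid1 and 1.26 for Hspg2. Lamb1 was nearly level, at 268 and 255 CPM, a ratio of 1.05 (1.00 to 1.09). Lama1, Col4a1, Col4a2 and Lamc1 therefore went together along this score and Lamb1 did not go with them.

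At 6 weeks the ratios were 1.87 for Col4a1, 1.97 for Col4a2, 2.25 for Lama1, 2.01 for Lamc1 and 1.27 for Lamb1. At 72 h those of Col4a1 and Col4a2 were lower, 1.26 and 1.25, and that of Lamc1 was 1.47, while Lama1 kept a ratio of 2.02 (1.88 to 2.16). The lower tercile at 72 h had Col4a2 at 422 CPM, above the upper tercile of uninjured cells at 391 CPM. Median UMIs per cell in the upper and lower terciles were 6805 and 6447 in uninjured cells.

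**Figure D4:**
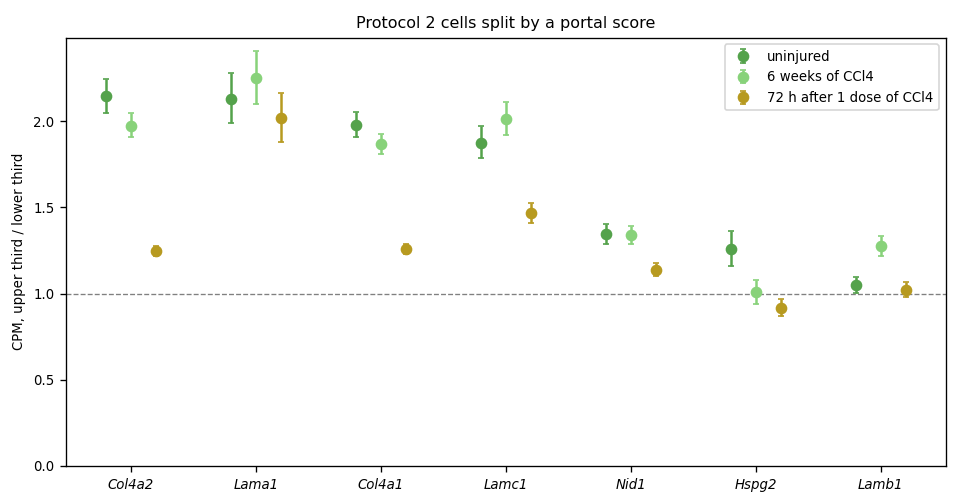
Member levels in the upper tercile of protocol 2 cells by portal score divided by those in the lower tercile, for each library, with 95% counting intervals. The ratio of Lama1 is 2.13, 2.25 and 2.02 in the uninjured, 6 week and 72 h libraries, while that of Col4a1 is 1.98, 1.87 and 1.26.

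Cells were also ordered by their fibrillar collagen level. At 72 h the upper tercile had Lama1 at 33.2 CPM against 94.6 CPM in the lower tercile, a ratio of 0.351 (0.327 to 0.378). In uninjured cells this ratio was 0.883, and at 6 weeks it was 0.616. Nid1 and Lamc1 at 72 h had ratios of 0.745 and 0.767, Col4a1 and Col4a2 had 1.13 and 1.16, and Hspg2 had 1.485. Col15a1 was at 22.7 CPM in the upper and 0.808 CPM in the lower tercile at 72 h, a ratio of 28.1 (18.1 to 46.3), and 18.4 without the cells with fibroblast markers. At both injury times protocol 2 cells with most fibrillar collagen thus had less Lama1 and more Hspg2 than those with least. Uninjured cells had the same directions, with Hspg2 at a ratio of 1.18 (1.09 to 1.28). The fibrillar collagen and portal orderings were not separate. Upper to lower ratios of Col1a1 by portal score were 0.838 uninjured, 0.343 at 6 weeks and 0.602 at 72 h. The part of zonal position in the Lama1 and Hspg2 ratios was not tested. Median UMIs per cell at 72 h were higher in the upper tercile than in the lower.

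In protocol 1 cells, 6 weeks of CCl4 moved no member by 2-fold. Among 9 FB-like members at 10 CPM or more, 0 were higher and 0 lower, where 1.46% and 0.475% of 8415 genes were. Col18a1 had the largest FB-like ratio, 34.5 against 22.6 CPM, or 1.53 (1.35 to 1.73). Col15a1, Lamc1 and Lama4 were at 0.844, 0.845 and 0.848 times their uninjured levels. Col4a1 and Col4a2 were at 1.07 and 1.04. The make-up of both classes differed between the libraries. The Ly6c1 and Pi16 cluster held 1243 FB-like cells uninjured and 482 at 6 weeks, the Thbs4 cluster 1090 and 434, and the Ptn cluster 1733 and 1723. Inside the Ptn cluster Lamc1 was at 93.6 CPM uninjured and 121 CPM at 6 weeks, and Lama4 at 36.7 and 35.9 CPM. In the Ly6c1 and Pi16 cluster Lama4 was at 92.7 and 92.9 CPM while Lamc1 was at 304 and 263 CPM, so the lower class levels of both genes were not seen in every cluster. Col18a1 was higher at 6 weeks in each of the 3 clusters, at 36.9 against 22.4, 32.6 against 24.6 and 27.2 against 20.3 CPM in the Ptn, Pi16 and Thbs4 clusters. The intervals overlapped in the Pi16 and Thbs4 clusters. Smooth muscle markers were also higher in FB-like cells at 6 weeks, with Myh11 at 101 against 28.9 CPM, Acta2 at 696 against 243 CPM and Tagln at 174 against 86.0 CPM, and VSMC-like cells made up 49.3% of that library against 26.4% of the uninjured one. Their part in the FB-like Col18a1 level was not tested. Among 8 VSMC-like members, 0 passed in either direction, where 3.27% and 0.51% of 8041 genes did. Col18a1 was at 223 against 161 CPM, a ratio of 1.39 (1.28 to 1.503), and Hspg2 at 80.7 against 105 CPM, a ratio of 0.770 (0.691 to 0.859). The Cd24a and Higd1b cluster, which had the lower Hspg2 level of the 2, grew from 658 to 1838 cells, against 855 and 949 in the Tcap and Pln cluster. Inside these clusters Hspg2 was at 69.0 CPM uninjured and 56.1 CPM at 6 weeks, and at 130 and 124 CPM, and the intervals overlapped in both.

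Smart-seq2 plates gave values with replicates. A portion was the set of wells from 1 named mouse on 1 plate, and its wells of 1 class were summed. FB-like cells gave 6 uninjured, 4 BDL and 4 CCl4 portions, VSMC-like cells gave 6, 5 and 4, and HSC-like cells gave 2 uninjured portions, both on 1 plate. Portions held 13 to 156 wells and 5091394 to 72943884 reads, and levels are read counts scaled to a total of 1000000 (CPM), without correction for transcript length. Nothing in the labels makes every portion a separate animal, so p-values measure the spread between portions, which may be technical. Tests were edgeR's quasi-likelihood test with Benjamini-Hochberg adjustment over all genes. HSC-like comparisons used 1 fit of 6 FB-like, 6 VSMC-like and 2 HSC-like uninjured sums, without a block. FB-like and VSMC-like sums of the same portion were therefore treated there as independent, and only 2 sums behind the spread were HSC-like.

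Lama1 was at 423 and 498 CPM in the 2 HSC-like portions. In 6 uninjured FB-like portions it ranged from 0.163 to 21.0 CPM with a median of 5.03 CPM, and in 6 VSMC-like portions from 0 to 1.09 CPM with a median of 0.0159 CPM. The HSC-like portions lay above all others without overlap. The log2 difference from FB-like cells was 6.23 (SE 1.15, adjusted p = 0.0029). Over wells of all conditions, reads of Lama1 occurred in 90.5% of HSC-like, 7.14% of FB-like and 1.29% of VSMC-like wells. The HSC-like wells were all uninjured, whereas 250 of the 658 FB-like wells were, so these shares compare unlike sets.

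Lamb1 was at 931 and 970 CPM in HSC-like portions, at 154 to 374 CPM (median 219) for FB-like portions, and for VSMC-like portions at 0.477 to 6.14 CPM (median 3.90). The 3 classes did not overlap. FB-like exceeded VSMC-like cells by a log2 difference of 6.36 (SE 0.60, adjusted p = 0.00018), and HSC-like exceeded FB-like cells by 2.11 (SE 0.53, adjusted p = 0.023). Lamc1 was at 363 and 395 CPM in HSC-like portions, 165 to 407 CPM for FB-like portions and 155 to 545 CPM for VSMC-like portions, which overlapped. Its FB-like minus VSMC-like log2 difference was 0.46, with a 95% interval of -0.42 to 1.35 (adjusted p = 0.47).

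Lama4 was at 0.0301 and 0.165 CPM in HSC-like portions, 59.1 to 157 CPM (median 121) for FB-like portions and 16.7 to 59.9 CPM (median 32.1) for VSMC-like portions. FB-like and VSMC-like portions overlapped in a narrow stretch. The log2 difference between them was 1.94 (SE 0.38, adjusted p = 0.0091), and HSC-like against FB-like cells had a log2 difference of -9.94 (SE 0.92, adjusted p = 7.2e-06). Lama1 and Lama4 thus differed in opposite directions between HSC-like and FB-like cells within 1 platform, and the HSC-like wells came from protocol 2.

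Col15a1 was at 104 to 270 CPM (median 193) for FB-like portions, 0.136 to 4.33 CPM (median 0.681) for VSMC-like portions and 0 and 0.0902 CPM in HSC-like portions. FB-like portions did not overlap the others. The FB-like minus VSMC-like log2 difference was 7.74 (SE 0.68, adjusted p = 0.00012). Col18a1 was at 463 to 1415 CPM (median 683) for VSMC-like portions, 30.3 to 64.0 CPM (median 56.8) for FB-like portions and 3.53 and 6.13 CPM in HSC-like portions, again without overlap, and the FB-like minus VSMC-like log2 difference was -3.68 (SE 0.25, adjusted p = 3.9e-05). Over wells of all conditions, reads of Col15a1 occurred in 83.4% of FB-like, 7.32% of VSMC-like and 0.327% of HSC-like wells. Those of Col18a1 occurred in 52.9%, 92.0% and 5.88% of the same wells.

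Nid1 was at 968 and 1081 CPM in HSC-like, 652 to 1179 CPM (median 783) for FB-like and 27.7 to 129 CPM (median 69.0) for VSMC-like portions. VSMC-like portions lay below all others. The FB-like minus VSMC-like log2 difference was 3.82 (SE 0.24, adjusted p = 2.5e-05). Col4a1, Col4a2 and Hspg2 overlapped between FB-like and VSMC-like portions, with log2 differences of 0.41 (95% interval -0.0023 to 0.81), -0.02 (-0.61 to 0.56) and -0.23 (-0.93 to 0.48). The intervals of these 3 genes lay within 2-fold in either direction. By DESeq2 the Col4a1 difference passed, at 0.47 (adjusted p = 0.039).

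In all, 4 of 10 members passed adjusted p 0.05 as higher in FB-like than in VSMC-like portions, where 7.53% of 14435 genes did, and 1 passed as lower, where 6.60% did. Lama1 had a log2 difference of 7.52 with an interval of 1.20 to 13.8 and did not pass (adjusted p = 0.081). HSC-like against FB-like portions had 2 of 10 higher and 3 lower, where 2.64% and 3.88% of 14829 genes passed. HSC-like against VSMC-like portions had 4 of 10 higher and 3 lower, where 6.07% and 5.95% did. The 4 were Lama1, Lamb1, Nid1 and Col4a1, the last at a log2 difference of 1.18 (SE 0.36, adjusted p = 0.040). The Col4a1 call was lost with DESeq2, RLE factors, deviations on log10 values and wells classed by score (adjusted p = 0.057 to 0.079), and in 6 fits that left out the uninjured portion of plate 1, 3, 4 or 5 or either HSC-like portion (adjusted p = 0.059 to 0.27). Col15a1, lower in HSC-like than in VSMC-like portions, lost its call without the uninjured portion of plate 1 or 3 or either HSC-like portion (adjusted p = 0.054 to 0.24). The Lamb1 call against FB-like cells was lost when either HSC-like portion or the uninjured portion of plate 1 or 3 was left out (adjusted p = 0.063 to 0.16). Portions named alike on several plates may be 1 mouse. Once these were summed, which merged the uninjured portions of plates 1 to 5, 0 of the 5 FB-like against VSMC-like calls held (adjusted p = 0.12 to 0.98). Lama4 was then at a log2 difference of 1.16. With the portion as a block, so few sums were left that their spread could hardly be estimated, so the loss of these calls decides nothing. Of the HSC-like against FB-like calls 0 higher and 1 lower then held, with Lama1 at adjusted p = 0.25 and Lamb1 at 0.19. HSC-like class, protocol 2 and that plate's mice cannot be told apart.

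**Figure D5:**
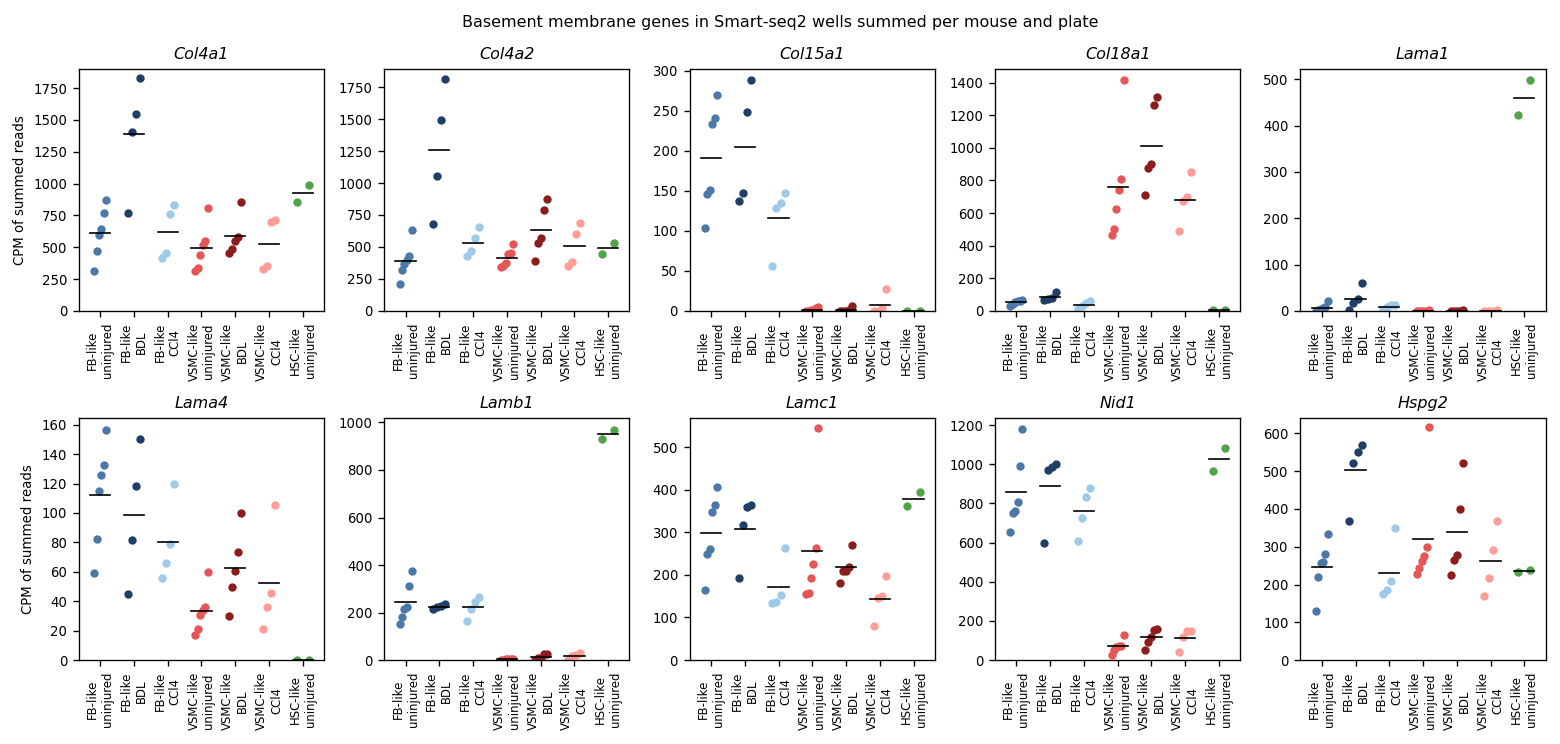
Smart-seq2 levels of the 10 genes in each portion (wells of 1 mouse on 1 plate), in CPM of reads, by class and condition. HSC-like portions stand above the others for Lama1 and Lamb1 and below them for Lama4 and Col18a1, and FB-like BDL portions lie high for Col4a2.

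After bile duct ligation 1 member passed as higher in FB-like cells and 0 as lower. Col4a2 was at 681, 1053, 1497 and 1814 CPM in the 4 BDL portions and at 210 to 632 CPM (median 383) in the 6 uninjured portions, which did not overlap. The log2 difference was 1.72 (SE 0.29, adjusted p = 0.022), and of 13261 genes 0.106% passed as higher and 0.0679% as lower. Col4a1 was at 770, 1405, 1549 and 1826 CPM against 310 to 868 CPM (median 617), with 1 BDL portion inside the uninjured range and a log2 difference of 1.21 (SE 0.31, adjusted p = 0.16). Hspg2 was at 368, 522, 552 and 570 CPM against 129 to 334 CPM (median 257), without overlap, at a log2 difference of 1.05 (SE 0.27, adjusted p = 0.15). Neither passed.

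The fit held 6 uninjured, 4 BDL and 4 CCl4 portions, and each portion was left out in turn. The Col4a2 call was lost in 5 of these fits (adjusted p = 0.057 to 0.11). Those fits lacked the uninjured portion of plate 1, 2 or 3, the second BDL portion of plate 1 or the BDL portion of plate 2. The call was also lost with plate as a block (log2 difference 1.78, adjusted p = 0.54). FB-like wells differed in make-up too. A cluster led by Comp, Col11a1 and Col12a1 held 8.40% of uninjured, 42.2% of BDL and 6.14% of CCl4 FB-like wells, and its part in the Col4a2 level was not tested.

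Nid1, Lamc1, Lamb1, Lama4 and Col15a1 had BDL log2 differences between -0.15 and 0.13 in FB-like cells, none of which passed. For Lamb1 the 4 BDL portions spanned 215 to 237 CPM, inside the uninjured range of 154 to 374 CPM. Lama1 was at 1.65 to 60.5 CPM in BDL portions against 0.163 to 21.0 CPM, a log2 difference of 1.97 (SE 1.00, adjusted p = 0.75). Col18a1 was at 67.3 to 116 CPM in BDL portions, above the uninjured 30.3 to 64.0 CPM without overlap, at a log2 difference of 0.69 (SE 0.37) that did not pass (adjusted p = 0.80).

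No member passed in FB-like cells after 6 weeks of CCl4, in VSMC-like cells after BDL or in VSMC-like cells after CCl4 by edgeR. Of 482 CCl4 wells, 160 (33.2%) stayed unnamed and were not used, against 3.81% of BDL and 0.651% of uninjured wells. The largest unnamed cluster, led by Serpinb2, Cxcl5 and Mmp7, scored highest for fibroblast markers. It stayed unnamed because the cholangiocyte marker Epcam was among its leading genes and no listed fibroblast marker was. The CCl4 results therefore cover the named wells only. At an unadjusted p under 0.05 there were 2 of 10, 3 of 9 and 2 of 9 members in these comparisons, and DESeq2 called 0 in each. All genes gave few calls as well, 0% after CCl4 in either class. In VSMC-like cells after BDL 0.199% of 13093 genes passed as higher and 0.0840% as lower. At an unadjusted p under 0.05 there were 591 of 13261 genes in FB-like cells after CCl4. In VSMC-like cells there were 597 of 13093 after CCl4 and 1105 after BDL. Among the members with unadjusted p under 0.05, Lamc1 had log2 differences after CCl4 of -0.76 in FB-like cells (95% interval -1.37 to -0.14) and -0.83 in VSMC-like cells (-1.57 to -0.10). Col4a2 in VSMC-like cells after BDL was at 394 to 878 CPM against 341 to 526 CPM, a log2 difference of 0.67 (0.16 to 1.17). The higher Col18a1 level of FB-like 10X cells at 6 weeks was not seen on the plates. FB-like portions had Col18a1 at 13.8 to 61.9 CPM (median 39.6) after CCl4 and 30.3 to 64.0 CPM (median 56.8) uninjured. VSMC-like portions had it at 487 to 855 CPM (median 688) and 463 to 1415 CPM (median 683). Whether BDL acted differently on a member in the FB-like and the VSMC-like class was tested as an interaction, which passed for 0 of 10 members (6 at an unadjusted p under 0.05) and for 0.0188% of 15993 genes by edgeR. The same test for CCl4 passed for 0 of 10 members (2 at an unadjusted p under 0.05) and 0% of genes. For both interactions the share of all genes at that unadjusted p was not taken, so the unadjusted member counts have no measure beside them.

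Around these members, the other basement membrane genes split between FB-like and VSMC-like cells as well. Of 19 at 10 CPM or more in the uninjured library, 9 were at least 2-fold higher in FB-like cells and 6 in those of VSMC type. Of all 8770 genes 19.7% and 11.9% were. On the FB-like side were the hemicentins Hmcn1, at 26.2 against 0.632 CPM, and Hmcn2, at 119 against 6.53 CPM, and the calcium-binding matrix protein Smoc2, at 961 against 32.7 CPM. Nid2, the other nidogen, was at 28.6 against 1.90 CPM, and Lama2, the alpha 2 laminin chain, at 112 against 17.9 CPM. On the VSMC-like side were Tinagl1 at 14.0 against 1144 CPM and the alpha 5 laminin chain Lama5 at 2.97 against 70.6 CPM. On the plates 9 of 26 passed as higher in FB-like cells and 3 as lower, where 7.53% and 6.6% of 14435 genes did. Lama5 was thus the alpha chain gene with the most UMIs in VSMC-like cells, ahead of Lama2 and Lama4.

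Receptors for the basement membrane went mainly the other way. Of 8 with 10 CPM or more, 1 was at least 2-fold higher in FB-like cells (Ddr2, a collagen receptor kinase) and 6 in VSMC-like cells. Of all 8770 genes 19.7% and 11.9% were. Itga7, a laminin-binding integrin of muscle, was at 1.73 against 77.8 CPM, and Bcam, a laminin alpha 5 receptor, was at 24.5 against 1066 CPM. On the plates 1 of 11 receptors passed as higher in FB-like and 5 as lower, where 7.53% and 6.6% of 14435 genes did. Of 12 genes for collagen folding, modification and export, 9 were at least 2-fold higher in FB-like cells, where 19.7% of all genes were. Among them was the collagen chaperone Serpinh1, at 2649 against 733 CPM. P3h2, a prolyl 3-hydroxylase, was at least 2-fold higher in VSMC-like cells at 3.66 against 41.9 CPM.

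In protocol 2 cells at 72 h, 1 of 10 other basement membrane genes, 1 of 6 receptors and 0 of 12 assembly genes were at least 2-fold higher and 0 lower, while 4 of 5 fibrillar collagens were higher. Of all 8387 genes 7.07% were at least 2-fold higher and 9.54% lower. The gene from the first list was Col4a5, a type IV chain, at 12.9 against 0.280 CPM. Col1a1 was 10.7 times higher, Col5a2 4.95 times, Col1a2 4.79 times and Col3a1 3.18 times. At 6 weeks only Col1a1 passed, at 650 against 201 CPM, where 2.96% of 8139 genes were higher. In FB-like cells at 6 weeks Tinagl1 (35.7 against 14.0 CPM), Col4a3 (13.4 against 6.19 CPM) and Bcam (65.3 against 24.5 CPM) were at least 2-fold higher. Of all 8415 genes 1.46% were. Tinagl1 and Bcam were at 892 and 1078 CPM in VSMC-like cells of that library, and the part of smooth muscle RNA, whose markers were also higher in FB-like cells at 6 weeks, was not tested. Lama2 and Agrn in protocol 2 were lower at 72 h than at 6 weeks, at 13.3 against 32.8 CPM and 20.3 against 44.1 CPM.

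The genes whose levels over the 7 groups were most like those of Col4a1, by Pearson's r of log2(CPM + 1) among 7565 genes, were Cd200r1 (r = 0.997), Rnf213 (r = 0.996), Adi1 (r = 0.994), Zbp1 (r = 0.994) and D430019H16Rik (r = 0.994). Among the members the closest pair was Lamb1 and Lamc1 (r = 0.986), followed by Nid1 with Lamc1 (r = 0.964), Col15a1 with Lama4 (r = 0.962) and Col4a1 with Col4a2 (r = 0.955). Col18a1 ran opposite to Lamb1 (r = -0.969). These are descriptions over 7 groups from 5 libraries, in which FB-like and VSMC-like cells of a library share its depth.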

How the data were processed

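The 10X tables hold whole-number UMI counts per gene and cell that the authors made with Cell Ranger 2.1.0 on mm10. The plate tables hold whole-number read counts per gene and well, as deposited by the authors after alignment with STAR (version not given in the sources used here). The plate labels give how many mice of each condition a plate held, and the layout deposited with each plate gave the mouse name of each well.

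The members and lists were chosen with earlier results of these data known. Cells with under 300 genes or over 30% mitochondrial UMIs were removed, as were genes in fewer than 3 cells, apart from listed genes. Cells were clustered (2000 variable genes without listed genes, 10 components, 30 neighbours, Leiden resolution 0.8, in scikit-learn 1.9.0, igraph 0.11.9 and leidenalg 0.10.2) and named from 5 FB, 5 VSMC and 7 HSC markers. The naming was set after clusters were seen, and clusters whose leading genes went against a name stayed unnamed. Called doublets, at an assumed rate of 0.8% per 1000 cells, were kept in the main values and left out in an alternative. CPM divides summed UMIs by all UMIs of the group. A 10X fold needed 10 CPM in the higher group and was read against a 2-fold limit, with no test. A count of 0 was read as allowing 3 counts. Wells outside 3 median absolute deviations were removed, and portions with under 10 wells of a class were not used. Portion sums were tested in R 4.3.3 with edgeR 4.0.16 (TMM, filterByExpr, quasi-likelihood, adjusted p under 0.05), with the portion as a block between FB-like and VSMC-like sums, since both sums of a portion came from the same mouse and plate. For FB-like against VSMC-like portions, 47 of 196 genes changed 4-fold in simulated data, and 4 of 13878 unchanged ones, were called. Named genes were the members, up to 5 of each list with the largest fold at 20 CPM or more, and the 5 most like Col4a1. Nid2, Lama2 between FB-like and VSMC-like cells, Col4a3, Col4a5, Ddr2 and Bcam in FB-like cells at 6 weeks were named outside this rule, after their values were seen. Alternatives were another normalization, no filter on low values, thinning, other class rules, DESeq2 1.42.0 and leaving out each portion.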

Additional observations from a re-analysis of the deposited data

Results flagged for a closer look

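Of 60 groups of 4 to 10 portions examined on the plates, 10 had a highest or lowest portion far from the rest by Dixon's test. Its chance rate of about 1 in 20 groups assumes independent groups of normally spread values. Here several flags shared a portion and some rested on few reads, so the count cannot be set against that rate. The labels do not make portions independent animals, and no cause was tested.

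Among VSMC-like uninjured portions, that of Uninjured 1 on plate 6, with 17 wells, stood apart by this test for 4 members. Its Col18a1 level was 1415 CPM against 463 to 810 CPM in the other 5, Lamc1 was 545 CPM against 155 to 262 CPM, Hspg2 was 617 CPM against 229 to 300.3 CPM, and Lama1 was 1.09 CPM, from 8 reads, against 0 to 0.0404 CPM.

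The portion of Peak CCl4 1 on plate 3 stood apart for 3 members. Its VSMC-like wells had Col15a1 at 26.7 CPM against 0.0508 to 3.11 CPM, and Lama1 at 0.790 CPM, from 16 reads, against 0 to 0.0490 CPM. Its FB-like wells had Lamc1 at 263 CPM against 134 to 152 CPM.

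Among BDL portions, Peak BDL 1 on plate 2 had Nid1 in FB-like wells at 597 CPM against 970.1 to 1003 CPM and Col15a1 in VSMC-like wells at 6.50 CPM against 0.111 to 1.30 CPM. Peak BDL 1 on plate 4 had Lama1 in VSMC-like wells at 0.813 CPM, from 37 reads, against 0 to 0.0425 CPM.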

How the results depend on the processing

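No result changed direction past its limit under any alternative run. For the 10X libraries, 95 of the 104 recounts of members past 2-fold stayed within 1.5 times of the count reported, among them FB-like against VSMC-like at a 1.5-fold limit, with 6 higher uninjured and 7 at 6 weeks in place of 5. Several reported counts were 0, and a 0 that stayed 0 is among the 95. For 10X values of single members, 82 recomputed values were classed as moved and 344 as the same. At 72 h against uninjured, 0 members were higher with the mean over cells, with thinning to 2000 UMIs or without cells of 3 or more fibroblast markers (an alternative chosen after seeing the data), and 2 were higher at a 1.5-fold limit. There, 1 was lower with the mean over cells or without the fibroblast-marker cells and 0 with median-ratio scaling. At a 1.5-fold limit 2 were lower at 72 h than at 6 weeks, and 1 was higher in FB-like cells at 6 weeks.

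On the plates, BDL in FB-like cells gave 3 higher members with DESeq2 (Col4a1 and Hspg2 at adjusted p = 0.022 and 0.015 in addition), 0 with wells classed by score, 0 with plate as a block and 0 to 1 in the fits without 1 portion. HSC-like against FB-like cells gave 1 higher with DESeq2, 1 with score classes and 1 to 2 without 1 portion. HSC-like against VSMC-like cells gave 2 higher with DESeq2. Summing portions named alike over plates, chosen after seeing the data, leaves fewer samples and gave 0 higher and 0 lower for FB-like against VSMC-like, 0 higher and 1 lower for HSC-like against FB-like, 2 higher for HSC-like against VSMC-like and 0 for BDL. For FB-like against VSMC-like, too few sums were left beside the block for this result to decide anything. Without the portion as a block, FB-like against VSMC-like gave 5 higher and 1 lower, since Lama1 then passed (log2 difference 5.45, adjusted p = 0.042). Lama1 also passed with DESeq2 and without the plate 6 portion. The cause of these changes was not tested.

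Depth limits Col15a1 in uninjured protocol 2 cells and Lama1 in protocol 1, where shares of cells are near the smallest that can be seen. Over the protocol 2 libraries Col18a1 and Lama4 were low but above that limit, in 1.62 to 6.46% and 0.686 to 4.08% of cells. Col15a1 was in 3.76% of protocol 2 cells at 6 weeks and 6.01% at 72 h. With 1 library per condition, 10X differences have no replicate error.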
